A study of Homo sapiens with 12 samples.

Results

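The aryl hydrocarbon receptor genes described here are CYP1A1, CYP1B1, AHR, ARNT and TIPARP, 5 of the 16020 gene rows in a read count table of AU565 cells. They were chosen by gene symbol, as the receptor, its partner and 3 of its classical targets, and with the high CYP1A1 level in spheroids already known from these data. All 5 were present in the table and all 5 passed the filter on low counts. Because of that choice their levels and fold changes are given as a description, with no test, and tests are given only for other pathway genes. The lists of these genes were also chosen with earlier results of these data known, so their counts are not independent of that knowledge.

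AU565 is an established human breast carcinoma line in which the ERBB2 receptor gene is amplified. RNA sequencing was done on 12 libraries, 3 from each of 4 culture formats, which are monolayer, small spheroids and large spheroids grown by liquid overlay, and capsules. Every library, monolayer included, is labelled as having had trastuzumab, an antibody against the ERBB2 protein, with 5% matrigel and 96 h of incubation before RNA was taken. The comparisons therefore hold no cells free of the antibody. The labels call the cells wild type. They leave unsaid whether the libraries of 1 format came from separate cultures, so the spread between libraries may be technical. The titles of the monolayer and large spheroid libraries carry the letters UP and the others do not, and the labels do not explain them. Whether a difference between these 2 sides comes from the format or from what UP stands for cannot be told apart.

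AHR is a transcription factor that waits in the cytoplasm in a complex with the chaperone HSP90 and the co-chaperone PTGES3 (p23). When it binds a ligand, such as a planar aromatic pollutant or a tryptophan derivative, it enters the nucleus, pairs with ARNT and binds DNA elements with the core GCGTG. CYP1A1 and CYP1B1 are haem monooxygenases that oxidise such ligands and also hydroxylate oestradiol. TIPARP, an enzyme that attaches ADP-ribose to proteins including AHR, and AHRR, a repressor that competes for ARNT, are feedback inhibitors induced by the receptor. ARNT is also the partner of the hypoxia-inducible factors HIF1A and EPAS1.

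CYP1A1 (Entrez 1543) lies on chromosome 15 from 74719542 to 74725528 and CYP1B1 (Entrez 1545) on chromosome 2 from 38067509 to 38076151. AHR (Entrez 196) lies on chromosome 7 from 17298652 to 17346147 and ARNT (Entrez 405) on chromosome 1 from 150809713 to 150876599. TIPARP (Entrez 25976) lies on chromosome 3 from 156674590 to 156706770. These are whole-gene positions in RefSeq, assembly GRCh38.p14. A promoter window of 300 bases, running from 250 bases before to 50 bases after an annotated start, was found in RefSeq for 4 of the 5 genes, with 3 windows for TIPARP and none for CYP1B1. The windows were searched for GCGTG on both strands. This core is also 1 of the forms that hypoxia response elements take, so a match does not name the factor. Of all 35116 windows, 36.5% held it, and 47.3% of the windows of genes in the count table did.

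The CYP1A1, TIPARP and AHRR windows are printed as windows that held the core, beside genes whose levels went different ways between formats. A relation of the core to these levels was not tested, and bases outside the windows were not searched. The GCGTG core, read as CACGC where it lies on the other strand, is in capitals, and each sequence runs 5′ to 3′ along the strand of its gene. The CYP1A1 window (chr15:74725479-74725778, minus strand) held 1 core, 57 bases before the start. The first TIPARP window (chr3:156674340-156674639, plus strand) held 2, beginning 208 and 142 bases before the start. The second AHRR window (chr5:322360-322659, plus strand) held 2, beginning 247 and 42 bases before the start.
CYP1A1: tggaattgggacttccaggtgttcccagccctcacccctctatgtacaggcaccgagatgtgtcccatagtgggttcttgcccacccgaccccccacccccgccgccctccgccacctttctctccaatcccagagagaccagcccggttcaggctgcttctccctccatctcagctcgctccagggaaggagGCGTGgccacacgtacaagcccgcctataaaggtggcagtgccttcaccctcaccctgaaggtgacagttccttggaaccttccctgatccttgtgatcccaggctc
TIPARP: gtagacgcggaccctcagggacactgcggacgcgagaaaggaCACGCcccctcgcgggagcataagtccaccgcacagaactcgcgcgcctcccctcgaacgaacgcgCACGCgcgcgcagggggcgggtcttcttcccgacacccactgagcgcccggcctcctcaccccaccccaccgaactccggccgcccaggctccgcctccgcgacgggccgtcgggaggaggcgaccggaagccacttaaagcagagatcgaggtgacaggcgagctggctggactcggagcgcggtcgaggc
AHRR: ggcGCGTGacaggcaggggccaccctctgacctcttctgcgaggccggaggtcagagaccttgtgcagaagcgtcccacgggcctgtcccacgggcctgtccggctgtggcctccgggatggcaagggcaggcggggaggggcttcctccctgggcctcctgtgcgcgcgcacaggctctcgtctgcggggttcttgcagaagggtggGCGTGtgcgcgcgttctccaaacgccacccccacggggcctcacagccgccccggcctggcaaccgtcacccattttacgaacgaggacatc
The AHR window held 1 core, beginning at base 38 of the transcript. The first AHRR window and the NQO1 window, not printed, also held 1 each. No core was found in the ARNT window or in the other 2 TIPARP windows, which says only that these letters are not in those windows.

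Library totals ran from 13971346 to 24729250 counts. Levels below are CPM, counts set to a common library total and scaled by the trimmed mean of M-values (TMM), and log2 fold changes with standard errors come from 1 fit of all 12 libraries. One capsule library, replicate 1, stood apart. Its chi-square statistic divided by the number of genes was 39.1 when compared with replicate 2 and 34.6 with replicate 3. For the other capsule pair it was 2.99, and for pairs within the other formats it ran from 2.8 to 12.6. The 7 luminal epithelial markers were all in the table and summed to between 11966 and 20833 CPM over the 12 libraries, while none of the 3 hepatocyte markers was in it. The largest part of the luminal sum was ERBB2, with format means from 6065 to 11534 CPM. CDH1 was nearly absent, at 1.27 CPM in monolayer, 0.998 in large spheroids, 0.0732 in small spheroids and 0.0421 in capsules. Across genes, fold changes followed GC content, with a Spearman rho of 0.668 for small spheroid against monolayer, 0.43 for capsule and 0.189 for large spheroid (14638 genes, which are not independent replicates). Fold changes are therefore also given after a correction for GC content and transcript length where it moved a fold by more than 1.5 times or changed a call, and for some others.

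CYP1A1, the most inducible of the receptor's target enzymes, was nearly silent in monolayer and present in all spheroid and capsule libraries. Monolayer held 1.88, 2.08 and 2.25 CPM (34, 54 and 49 counts), small spheroids 70.6, 90.4 and 73.1 CPM. The large spheroid libraries held 28.6, 25.1 and 25.6 CPM and the capsule libraries 45.3, 25.7 and 26.0 CPM. Every library of the other formats was above every monolayer library, and every small spheroid library was above all others.

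Against monolayer, the log2 fold change of CYP1A1 was 5.23 ± 0.22 (SE) in small spheroids, 3.66 ± 0.22 in large spheroids and 3.96 ± 0.22 in capsules. It ranked 22nd, 36th and 57th from the top among the 15175 genes tested in these comparisons. Large spheroids and capsules, the neighbours in the order of levels, overlapped and differed by 0.30 ± 0.17, or by -0.03 without capsule replicate 1. Without that library the capsule value against monolayer was 3.64. The GC content of the longest CYP1A1 transcript was 53.3%, and the correction left the 3 values at 5.05, 3.61 and 3.84.

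CYP1B1, an enzyme known from mammary tissue for oestradiol 4-hydroxylation, was also lowest in monolayer but had another order among the remaining formats. It stood at 11.3, 11.1 and 9.46 CPM in monolayer and at 26.1, 33.0 and 25.2 CPM in small spheroids. Large spheroids held 69.3, 68.6 and 73.9 CPM, the highest of the 4 formats. The capsule libraries held 67.8, 35.4 and 31.3 CPM, so that replicate 1 stood near the large spheroids and the other 2 near the small spheroids.

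The log2 fold change of CYP1B1 against monolayer was 1.40 ± 0.22 in small spheroids, 2.73 ± 0.22 in large spheroids and 2.08 ± 0.22 in capsules. Without capsule replicate 1 the capsule value was 1.65. Large spheroids exceeded small spheroids by 1.33 ± 0.20, and by 0.89 after the GC and length correction. Capsules and small spheroids overlapped, at a difference of 0.68 ± 0.21, or 0.25 without capsule replicate 1. Capsules were below large spheroids by a narrow margin in replicate 1 and by a wide one in the others, at -0.65 ± 0.20, or -1.08 without that library. The correction raised the small spheroid value to 1.95. The antisense gene CYP1B1-AS1, whose reads could mix with those of CYP1B1 since the strand setting is not given, stood at no more than 0.88 CPM on average in any format.

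**Figure D1:**
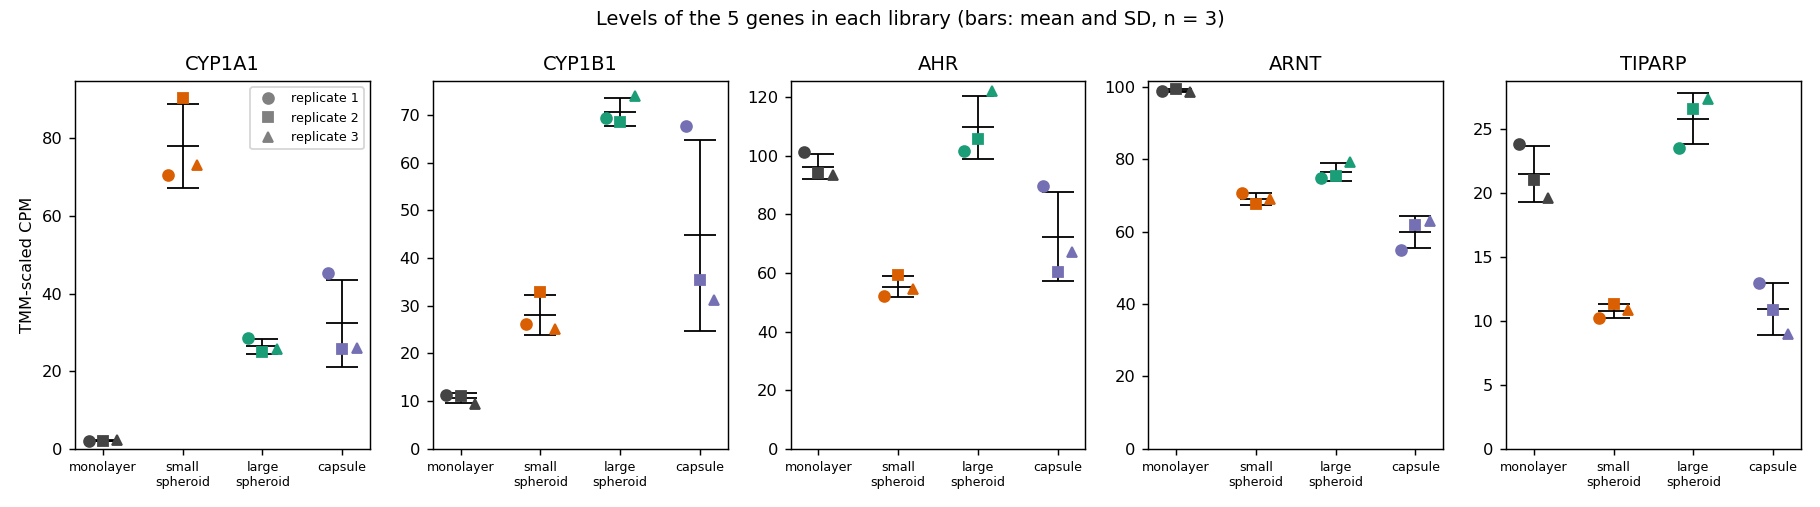
Levels of the 5 genes in TMM-scaled CPM (vertical axes, each from 0) in the 4 culture formats. Points are libraries with the replicate number by shape, and bars give the mean and SD (n = 3). CYP1A1 is highest in small spheroids, CYP1B1 in large spheroids, and capsule replicate 1 lies above its partners for CYP1A1, CYP1B1, AHR and TIPARP.

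The balance between the enzymes differed between formats. Per length, as CPM per kilobase of merged exon, CYP1A1 went from 0.671 in monolayer to 25.3 in small spheroids, 8.57 in large spheroids and 10.5 in capsules. CYP1B1 went from 1.93 to 5.12, 12.9 and 8.16 on the same scale. The ratio of CYP1B1 to CYP1A1 per length, without the GC and length correction, was 2.91 ± 0.52 (SD, n = 3) in monolayer and 0.202 ± 0.0077 in small spheroids. It was 1.51 ± 0.13 in large spheroids and 0.762 ± 0.083 in capsules. The ranges of this ratio did not overlap between any of the 4 formats, and capsule replicate 1, which had more of both genes, gave 0.84 where its partners gave at least 0.674.

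**Figure D2:**
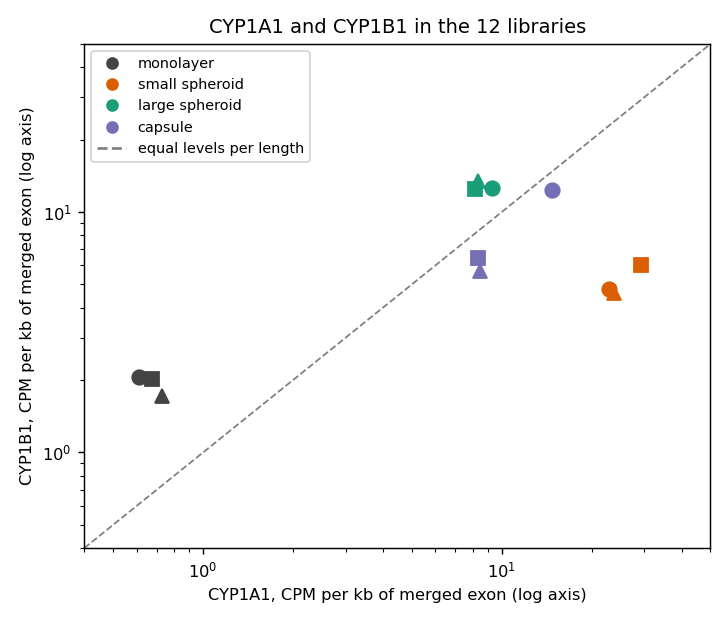
CYP1B1 against CYP1A1 in the 12 libraries, both as CPM per kilobase of merged exon on log axes, with formats by colour and replicate numbers by shape as in the plot of levels. The dashed line marks equal levels per length: monolayer and large spheroid libraries lie above it, small spheroid and capsule libraries below it.

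AHR, the receptor itself, did not follow its target CYP1A1. It stood at 101.2, 94.2 and 93.5 CPM in monolayer and at 52.1, 59.2 and 54.4 CPM in small spheroids, where CYP1A1 was highest. Large spheroids held 101.5, 105.7 and 122 CPM and capsules 89.6, 60.5 and 67.2 CPM. Small spheroids were below all other libraries, and large spheroids were only just above monolayer.

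The log2 fold change of AHR against monolayer was -0.80 ± 0.12 in small spheroids, 0.19 ± 0.12 in large spheroids and -0.41 ± 0.12 in capsules (-0.59 without capsule replicate 1). In small spheroids and capsules the sign turned with the correction: AHR, whose longest transcript has a GC content of 38.2%, came to 0.23 in small spheroids, 0.44 in large spheroids and 0.17 in capsules. Large against small spheroids moved from 0.99 ± 0.12 to 0.21. Per length and without the correction, CYP1A1 stood at 0.0536 ± 0.0069 of the AHR level in monolayer, 3.50 ± 0.26 in small spheroids, 0.604 ± 0.09 in large spheroids and 1.09 ± 0.15 in capsules (SD, n = 3).

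ARNT, the shared partner of AHR and the hypoxia factors, had the narrowest range of the 5 genes. It stood at 98.96, 99.4 and 98.6 CPM in monolayer, at 70.7, 67.6 and 68.9 CPM in small spheroids, at 74.9, 75.3 and 79.3 CPM in large spheroids and at 54.9, 61.7 and 63 CPM in capsules. No 2 formats overlapped, and the order was capsule, small spheroid, large spheroid and monolayer from low to high. Against monolayer the log2 fold changes were -0.52 ± 0.07, -0.37 ± 0.07 and -0.73 ± 0.07 in small spheroids, large spheroids and capsules. The correction gave -0.21, -0.32 and -0.53, and turned large against small spheroids from 0.15 ± 0.07 to -0.10.

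TIPARP, a receptor target and feedback inhibitor, was lower in small spheroids, where CYP1A1 was highest, and in capsules, but not in large spheroids. It stood at 23.8, 21.0 and 19.6 CPM in monolayer and at 10.2, 11.3 and 10.9 CPM in small spheroids. Large spheroids held 23.5, 26.5 and 27.3 CPM and capsules 12.96, 10.9 and 8.94 CPM. Monolayer and large spheroids overlapped, as did small spheroids and capsules, and the first 2 formats were above the other 2 in every library. This split is also that of the titles with and without the letters UP, so the 2 cannot be told apart. Against monolayer the log2 fold change was -0.99 ± 0.13 in small spheroids, 0.27 ± 0.12 in large spheroids and -0.97 ± 0.13 in capsules, and after the correction -0.39, 0.37 and -0.70. Capsules and small spheroids differed by 0.02 ± 0.14, and by -0.31 after it.

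**Figure D3:**
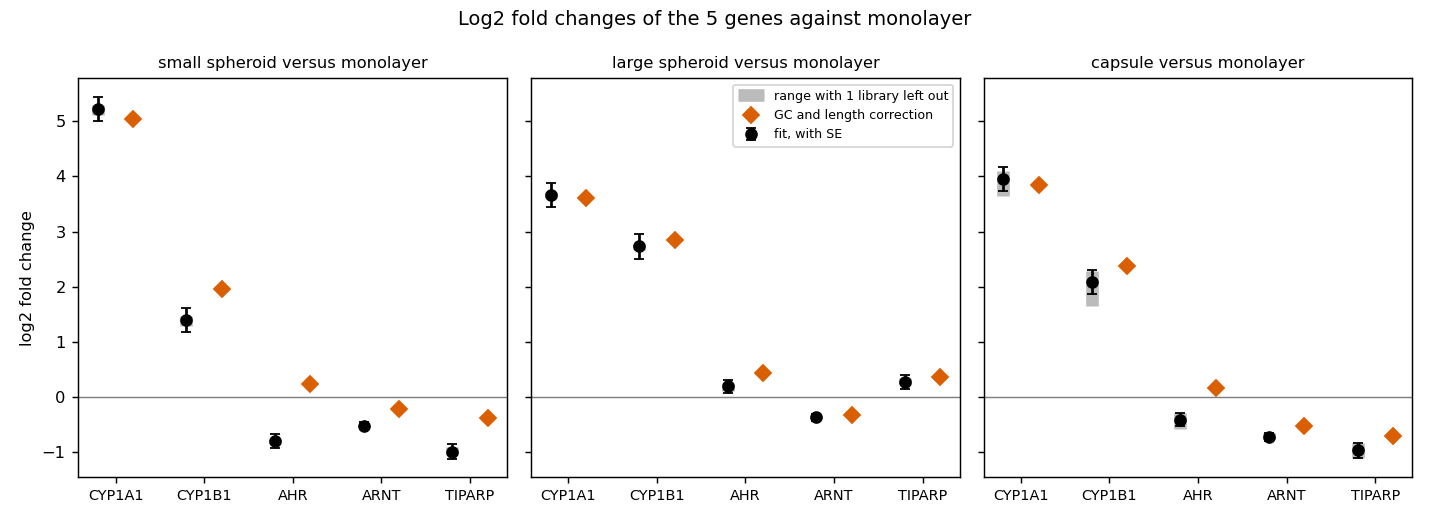
Log2 fold changes of the 5 genes against monolayer (vertical axis) in small spheroids, large spheroids and capsules. Black points are the fit with SE, grey bars the range with 1 library left out in turn, and orange diamonds the value after the GC and length correction. CYP1A1 and CYP1B1 stay above 0 throughout, while AHR changes sign in small spheroids and capsules.

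Separation of this kind was common in these data. The libraries of small spheroids and monolayer did not overlap for 5 of 5 genes, where 78% of all genes tested did not overlap. For large spheroids against monolayer it was 4 of 5 beside 67.1% of all genes, and for capsules against monolayer 5 of 5 beside 66.8%. Large against small spheroids gave 5 of 5 beside 73.1%, capsules against small spheroids 3 of 5 beside 58.8% and capsules against large spheroids 4 of 5 beside 63%. With 5 genes these counts cannot be set apart from the background. In size, CYP1A1 and CYP1B1 stood at the 99.9th and 90.8th percentile of log2 fold changes in small spheroids, the 99.8th and 99.2nd in large spheroids and the 99.6th and 97.2nd in capsules. These percentiles were part of what drew attention to CYP1A1 and are no test.

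Markers of other cell types also differed between the libraries. The 3 melanocyte markers in the table, TYRP1, PMEL and MLANA, summed to between 44.7 and 99.1 CPM in monolayer and between 14.7 and 18.8 CPM in large spheroids, and to no more than 3.902 CPM in any small spheroid or capsule library. AHR and TIPARP were high on the same side before the GC and length correction. After it the log2 fold change of AHR against monolayer was 0.23 in small spheroids and 0.17 in capsules. That of TIPARP was -0.39 and -0.70. The 4 cardiac markers summed to as much as 175.2 CPM in monolayer replicates 1 and 2 and to 1.06 CPM in replicate 3. In large spheroids they summed to as much as 59.05 CPM in replicates 1 and 2 and to 3.85 CPM in replicate 3. Monolayer replicate 3 held 93.5 CPM of AHR, 98.6 of ARNT, 19.6 of TIPARP, 2.25 of CYP1A1 and 9.46 of CYP1B1. Large spheroid replicate 3 held 122 CPM of AHR, 79.3 of ARNT, 27.3 of TIPARP, 25.6 of CYP1A1 and 73.9 of CYP1B1, of which AHR, ARNT, TIPARP and CYP1B1 were the highest of that format. The 4 endothelial markers summed to 14.4 to 18.02 CPM in large spheroids, where CYP1B1 was highest, to 11.7 to 12.5 CPM in capsules, 9.40 to 10.2 CPM in monolayer and 4.93 to 7.34 CPM in small spheroids. These 4 went different ways: the large spheroid sum came mainly from KDR (8.62 ± 1.36 CPM, SD, n = 3, against 0.303 ± 0.29 in monolayer), while CDH5 stood at 5.02 ± 0.921 CPM there against 7.14 ± 0.543 in monolayer. PECAM1 was at 0.908 against 1.28 CPM, and VWF was highest in capsules, at 3.06 CPM. Of 7 fibroblast markers, 4 were in the table, with sums of 27.2 to 29.2 CPM in small spheroids and 8.45 to 22 CPM elsewhere. The small spheroid sum came mainly from COL1A1 (25.3 ± 1.22 CPM against 8.36 ± 0.336 in monolayer), while COL1A2 (1.14 against 2.72 CPM), COL3A1 (1.79 against 4.97 CPM) and PDGFRB (0.264 against 0.488 CPM) had lower means there. Of 5 immune markers, 2 were in the table, CD14 and CD68, with sums between 16.4 and 53.8 CPM over all libraries. The part of these cells or transcripts in the levels of the 5 genes was not tested. In bulk RNA, fewer cells of a type and less RNA per cell cannot be told apart.

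The pathway around the 5 genes was read from 8 lists with 103 further genes, of which 89 were in the table and 87 were tested. The lists were chosen with earlier results of these data known, so the shares called are a description of them. In small spheroids 37 rose and 34 fell against monolayer (81.6% called, beside 72.3% of all genes), in large spheroids 34 rose and 38 fell (82.8%, beside 57.1%), and in capsules 30 rose and 34 fell (73.6%, beside 66%). Among all genes 37% rose and 35.3% fell in small spheroids, 28.7% and 28.4% in large spheroids and 34.5% and 31.5% in capsules. These shares are also the background for the single lists below. After the GC and length correction 9111, 9140 and 9515 of the 15175 genes tested were called in small spheroids, large spheroids and capsules against monolayer. These comparisons share the monolayer libraries. Of the 87 genes, 59 were called between large and small spheroids (66.3% of all genes), 54 between capsules and small spheroids (52%) and 68 between capsules and large spheroids (62.7%). Adjusted p-values are from edgeR's quasi-likelihood test with Benjamini-Hochberg adjustment over all genes.

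Other receptor targets differed in direction among themselves. Of 12 tested, 4 rose, 4 fell and 4 did not pass in small spheroids (median log2 fold change 0.02, against 0.01 for all genes), 8 rose and 3 fell in large spheroids (0.62, against 0, with 28.7% of all genes higher) and 5 rose and 3 fell in capsules (0.16, against 0.04). After the GC and length correction 6 rose and 4 fell in small spheroids (median 0.12), 8 and 3 in large spheroids and 5 and 3 in capsules. Over all genes, 72.3%, 57.1% and 66% were called in these formats before it. AHRR, the repressor with 2 cores in the window printed above, stood at 29.6, 28.95 and 32.6 CPM in monolayer and at 20.6, 22.9 and 22.6 CPM in small spheroids. Large spheroids held 26.1, 25.2 and 23.2 CPM of AHRR and capsules 15.9, 18.2 and 17.7 CPM. All monolayer libraries were above all others. AHRR fell in small spheroids (-0.47 ± 0.09, edgeR adjusted p = 0.000284), in large spheroids (-0.29 ± 0.09, adjusted p = 0.0127) and in capsules (-0.81 ± 0.10, adjusted p = 1.09e-06).

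In large spheroids AHRR no longer passed when the third monolayer library (-0.24, edgeR adjusted p = 0.0664) or the third large spheroid library (-0.24, adjusted p = 0.0574) was left out, and the correction moved the small spheroid value to -0.79. AHRR overlaps the read-through gene PDCD6-AHRR, so its counts are uncertain. CYP1A2, the liver enzyme beside CYP1A1 on chromosome 15, did not pass the filter, with 30 counts over the monolayer libraries and 10, 8 and 22 over those of small spheroids, large spheroids and capsules. ALDH3A1, another classical target, has no value here.

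NQO1, a quinone reductase under AHR and NRF2 control, rose in capsules from 241.9 ± 7.91 to 424.6 ± 102 CPM (SD, n = 3, log2 fold change 0.81 ± 0.12, edgeR adjusted p = 1.16e-05). Capsule replicate 1 held 542.2 CPM of NQO1 and its partners 360.4 and 371.3 CPM. It rose in large spheroids by 0.37 ± 0.12 (adjusted p = 0.0125). In small spheroids it stood at 0.13 ± 0.12 (adjusted p = 0.344), and was called there after the correction (0.46, adjusted p = 0.000259) and without capsule replicate 1 (0.13, adjusted p = 0.0377). NFE2L2, which encodes NRF2, fell in small spheroids by 0.76 on the log2 scale and did not pass in large spheroids (0.16 ± 0.09) or capsules (-0.16 ± 0.09). Without capsule replicate 1 it was called in capsules (-0.27, adjusted p = 0.00285) and in large spheroids (0.16, adjusted p = 0.0297), and the correction also called it in large spheroids (0.19, adjusted p = 0.028).

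HES1, a Notch effector, rose 2.73-fold in small spheroids to 94.1 ± 5.85 CPM, and STC2, a secreted glycoprotein, rose 3.42-fold there and 3.54-fold in large spheroids. ABCG2, a drug efflux pump, fell 2.37-fold in small and 2.21-fold in large spheroids and rose 2.99-fold in capsules, to 31.7 ± 8.02 CPM, and after the correction its value in small spheroids was -0.52. CYP2S1, an extrahepatic P450, rose 5.14-fold in capsules, from 0.235 to 1.21 CPM, and XDH, xanthine dehydrogenase, rose 2.63-fold in large spheroids. PRDM1, a transcriptional repressor, fell 2.15-fold in capsules. UGT1A6, a glucuronosyltransferase, had 63 counts over the monolayer libraries and 4, 6 and 5 over those of the other formats, and its exons are shared with other UGT1A genes, so its counts are uncertain.

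**Figure D4:**
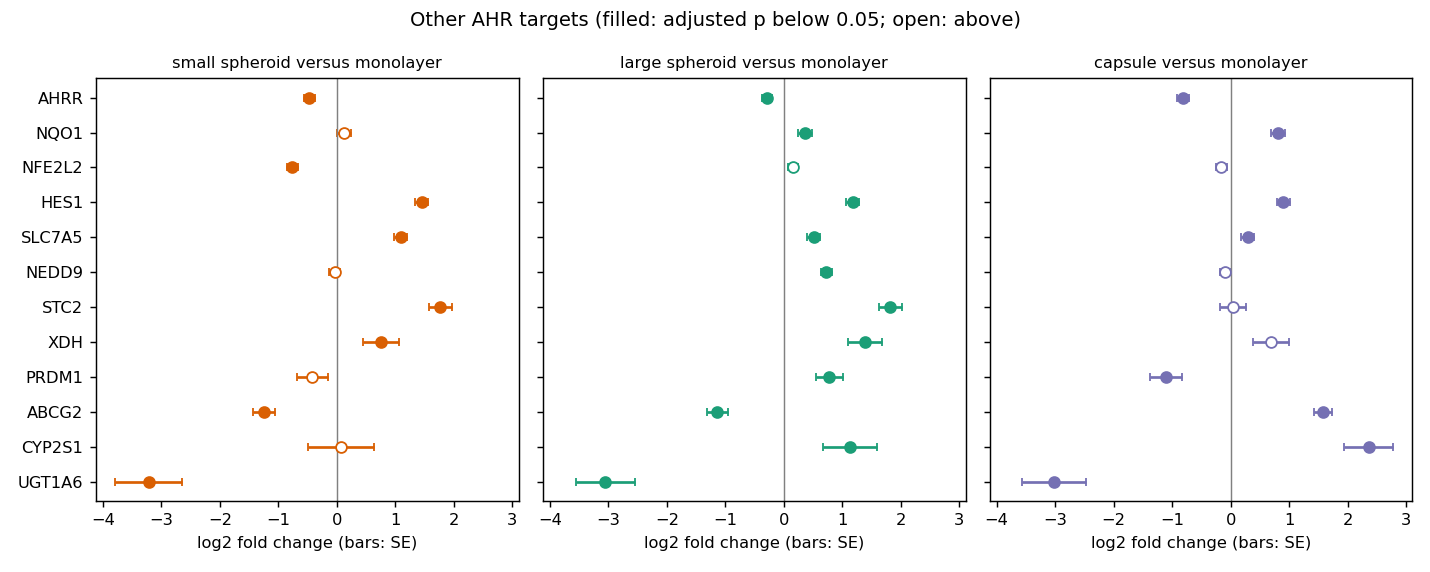
Log2 fold changes against monolayer (horizontal axis, bars SE) of the 12 tested receptor targets other than the 5 genes, in small spheroids, large spheroids and capsules. Filled points had an adjusted p below 0.05 and open points did not. AHRR lies below 0 in all 3 formats, and ABCG2 is on opposite sides in the spheroids and the capsules.

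The list of the receptor complex held chaperones and co-chaperones that hold AHR before ligand, and XPO1, a nuclear export receptor. Of 6 genes, 2 rose and 4 fell in small spheroids (median -0.92), 4 fell and none rose in large spheroids (-0.45), and 1 rose and 3 fell in capsules (-0.24). After the GC and length correction none rose and 5 fell in small spheroids. Before it, 72.3%, 57.1% and 66% of all genes were called in small spheroids, large spheroids and capsules. PTGES3 fell 2.27-fold in small spheroids, 1.34-fold in large spheroids and 1.96-fold in capsules. HSP90AB1 fell 1.58-fold, 1.58-fold and 1.51-fold, and HSP90AA1 fell 2.51-fold in small and 1.97-fold in large spheroids. The kinase co-chaperone CDC37 rose 1.70-fold in small spheroids and 1.84-fold in capsules, and the first of these calls was lost after the correction (0.06, adjusted p = 0.429). XPO1 fell by 1.19 on the log2 scale in small spheroids, and by 0.15 after it.

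Among relatives and coactivators of the receptor, 4 of 12 rose and 8 fell in small spheroids (median -0.73), 2 rose and 6 fell in large spheroids (-0.26) and 4 rose and 8 fell in capsules (-0.62). After the correction 3 rose and 5 fell in each of the 3. Of all genes, 72.3%, 57.1% and 66% were called before it. ARNT2, a close relative of ARNT, stood at 1.37 ± 0.24 CPM in monolayer and at 6.23 ± 1.14, 5.73 ± 0.65 and 3.74 ± 0.31 CPM in small spheroids, large spheroids and capsules. It rose in all 3 (log2 fold changes 2.17 ± 0.20, 2.05 ± 0.20 and 1.44 ± 0.21, edgeR adjusted p = 4.87e-08, 1.8e-07 and 1.37e-05), as did the clock factor NPAS2 (2.06, 2.14 and 1.54). CLOCK fell by 1.64 in small spheroids, by 0.81 in large spheroids and by 1.09 in capsules on the log2 scale, and by 0.46, 0.48 and 0.37 after the correction. HIF1A fell 1.94-fold, 1.65-fold and 1.56-fold. After the correction it stood at 0.08 in small spheroids (adjusted p = 0.503) and at -0.19 in capsules (adjusted p = 0.0931). EPAS1 fell 2.65-fold in large spheroids.

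Hypoxia genes whose factor also needs ARNT were mostly higher: 8 of 10 rose and 1 fell in small spheroids (median 1.06), 10 of 10 rose in large spheroids (2.39), and 7 rose and 2 fell in capsules (0.76). After the correction 9 rose and none fell in small spheroids. Before it, 37%, 28.7% and 34.5% of all genes rose in small spheroids, large spheroids and capsules. EGLN3, an oxygen-sensing hydroxylase, stood at 10.2 ± 0.804 CPM in monolayer and at 144.8 ± 27.9, 222.8 ± 14.7 and 57.9 ± 11.6 CPM in the other formats, and ANKRD37 rose 13.5-fold, 24.8-fold and 7.84-fold. Hypoxia is part of what earlier results of these data showed. EGLN3 was highest in large spheroids and lowest in monolayer, as was CYP1B1, but the middle of the order differed. EGLN3 was higher in small spheroids than in capsules, while CYP1B1 had means of 28.1 CPM in small spheroids and 44.8 CPM in capsules. CA9 was the only gene of the list with its highest mean in small spheroids, where CYP1A1 was also highest. It stood at 13.7 CPM there, 11.1 in large spheroids and 5.08 in capsules. Its small and large spheroid libraries overlapped. Between large and small spheroids, 7 of 10 genes were called higher in large spheroids and none lower, where 66.3% of all genes were called in either direction. A relation of either enzyme to hypoxia was not tested. In capsules VEGFA fell 1.37-fold and KDM3A, a histone demethylase, 1.49-fold. KDM3A, which also fell in small spheroids (-0.47), came to 0.31 there (adjusted p = 0.000513) and to -0.07 in capsules (adjusted p = 0.395) after the correction.

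A list of electron supply to P450 enzymes and of haem synthesis and breakdown had more higher genes in small spheroids and more lower ones in large spheroids, and the first of these did not remain after the correction. In small spheroids 7 of 10 genes rose and 3 fell (median 0.37), in large spheroids 1 rose and 7 fell (-0.32), and in capsules 5 rose and 2 fell (0.24). After the correction the counts were 3 and 3, 1 and 8, and 4 and 4. The shares of all genes called before it were 72.3%, 57.1% and 66%. Single genes of haem synthesis differed in this. CPOX rose in small and large spheroids (0.64 and 0.31). FECH fell in both (-0.60 and -0.39), a call lost in small spheroids after the correction (-0.12, adjusted p = 0.185). UROD went opposite ways, with means of 25.9 CPM in monolayer, 32.7 in small spheroids and 20.9 in large spheroids. POR, the reductase that supplies electrons to microsomal P450 enzymes, stood at 358.6 ± 22.7 CPM in monolayer, 471.3 ± 18.3 in small spheroids, 216.7 ± 6.65 in large spheroids and 383.9 ± 53.7 in capsules. It fell 1.65-fold in large spheroids, and its rise in small spheroids (0.39 ± 0.09) turned to -0.31 (adjusted p = 0.000992) after the correction. In capsules it did not pass (0.10 ± 0.09), was called higher without capsule replicate 1 (0.21, adjusted p = 0.00488) and lower after the correction (-0.35, adjusted p = 0.000334).

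Of 11 tested genes of tryptophan and ligand metabolism, 3 rose and 2 fell in small spheroids (median 0.10), 3 rose and 5 fell in large spheroids (-0.51) and 2 rose and 4 fell in capsules (-0.01). After the correction 2 rose and 3 fell in small spheroids and 1 rose and 5 fell in capsules. Before it, 72.3%, 57.1% and 66% of all genes were called in the same formats. KYNU, kynureninase, which uses up kynurenine, fell 3.81-fold, 3.10-fold and 2.14-fold in small spheroids, large spheroids and capsules, and by 0.64, 1.22 and 0.31 on the log2 scale after the correction. KMO, kynurenine monooxygenase, rose 1.66-fold in large spheroids and 2.09-fold in capsules. QPRT, quinolinate phosphoribosyltransferase, rose 1.70-fold in small spheroids. Its call in capsules (0.27 ± 0.09) was lost after the correction (-0.02), without monolayer replicate 1 (0.26, adjusted p = 0.0525) without monolayer replicate 2 (0.23, adjusted p = 0.0772) and with the 2 formats fitted alone (0.23, adjusted p = 0.0712). DDC, aromatic amino acid decarboxylase, fell 4.84-fold in large spheroids, from 2.35 to 0.482 CPM.

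The genes most like each of the 5 in pattern were sought among 10198 genes by Pearson's r of log2 CPM over the 12 libraries. These libraries form 4 formats, so few independent levels stand behind each r, and it is given as a description. The GC and length correction was not applied to these levels. CYP1A1 was most like MUCL1 (r = 0.99), RGS16 (0.986), IL17REL (0.986), SLCO4A1 (0.985) and SDHAF1 (0.984). CYP1B1 was most like ERRFI1 (0.991), ANKRD46 (0.988), KLHL2 (0.979), DSTYK (0.978) and LDHA (0.978). AHR was most like FAM114A2 (0.99), CPNE3 (0.987), FOXN2 (0.986), EIF1AX (0.985) and LYRM1 (0.984). ARNT was most like PHACTR4 (0.992), DOCK1 (0.99), RPRD2 (0.989), WWTR1 (0.986) and FHIP1A (0.985), and TIPARP was most like BACH1 (0.994), RFK (0.992), MTUS1 (0.992), RSBN1L (0.991) and FBXL4 (0.989).

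Within the 5, AHR and TIPARP had the highest r, at 0.916, followed by CYP1A1 and CYP1B1 at 0.702. CYP1A1 was at -0.842 with ARNT, -0.551 with AHR and -0.553 with TIPARP. These r are of levels without the GC and length correction. After it AHR stood above monolayer, at 0.23 in small spheroids, 0.44 in large spheroids and 0.17 in capsules, so these r may depend on it. Per length, TIPARP stood at 0.355 ± 0.021 of the AHR level in monolayer, 0.311 ± 0.0071 in small spheroids, 0.375 ± 0.022 in large spheroids and 0.243 ± 0.039 in capsules (SD, n = 3). This ratio ranged much less between formats than that of CYP1A1 to AHR, both taken without the correction.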

How the data were processed

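RNA sequencing counts of 12 AU565 libraries were used, 3 per culture format, grouped by the labels' condition. The authors deposited read counts, as whole numbers, in 1 table with a row per Entrez identifier. Reads were aligned with subread, per the file headers, and assigned with featureCounts on hg38, and limma was used in a role that is not named, per the submitters' processing notes. For versions, annotation, strand setting and any row filter nothing is stated. The column of capsule replicate 1 spells the format differently and was matched by format and number. Rows without a symbol numbered 164 (0.0705% of counts) and stayed in library sizes, since each has an Entrez identifier.

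Genes were filtered with filterByExpr (minimum count 10), leaving 15175 genes, and fitted in edgeR 4.0.16 (R 4.3.3) with TMM scaling, 1 coefficient per format and the quasi-likelihood F test, tested on simulated data. Adjustment was by Benjamini-Hochberg per comparison, and adjusted p below 0.05 was called. GC content and length came from the longest GENCODE 29 transcript (96.1% of rows), and merged exon length from its basic set. The correction took an offset per gene and library from splines of log2 CPM (prior count 2) on both. Alternatives used limma 3.58.1 and DESeq2 1.42.0.

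The members and lists were chosen with earlier results of these data known. Named are the 5 genes, 12 fixed pathway genes where measured, the 2 highest and 2 lowest called genes per list against monolayer, and the 5 genes most like each member with at least 10 CPM in a format. Not every such gene is named, and some are not reported here.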

Additional observations from a re-analysis of the deposited data

How the results depend on the processing

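Values were recomputed with DESeq2 size factors, without the filter, with DESeq2, limma-voom, a replicate block, the 2 compared formats alone, the GC and length correction, and each library left out. Of 570 such values of the 5 genes, 541 stayed within the spread between replicates, 26 moved and 3 clear differences turned. The 3 were AHR after the GC and length correction, at 0.23 in small spheroids and 0.17 in capsules against monolayer and -0.06 in capsules against small spheroids. Smaller differences that changed sign were CYP1A1 in capsules against large spheroids without capsule replicate 1 (-0.03), and after the correction ARNT in large against small spheroids (-0.10) and TIPARP in capsules against small spheroids (-0.31, and also -0.12 without capsule replicate 1 and -0.02 without small spheroid replicate 1). CYP1A1 against monolayer ran from 5.11 to 5.30 in small spheroids, 3.61 to 3.72 in large spheroids and 3.64 to 4.10 in capsules with 1 library left out.

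The counts of called pathway genes stayed within 1.5 times under all settings, and the cause of changes was not tested. With 1 library left out they ran from 66 to 74, 63 to 75 and 59 to 66 against monolayer for small spheroids, large spheroids and capsules. With the replicate block they were 72, 70 and 63 in place of 71, 72 and 64. The labels do not say that a number marks a shared culture. Over 18 same-numbered pairs, deviations from format means correlated at -0.215 to 0.217. For monolayer and large spheroids these were 0.089, 0.154 and 0.217. Between these 2 formats each library correlated best with its own number, a hint from the data and not the design. The margin was small for monolayer replicate 1, at 0.086 with large spheroid replicate 2. Large spheroid replicate 1 correlated more with capsule replicate 3 (0.141) than with its own number in monolayer. Of 1993 values of named pathway genes, 1962 kept direction and side of the threshold, 26 changed side and 5 turned. After the correction HIF1A (0.08), POR (-0.31) and KDM3A (0.31) turned in small spheroids, and POR (-0.35) and QPRT (-0.02) in capsules. The split of pathway calls in capsules against small spheroids went from 25 higher and 29 lower to 16 and 33 with the correction. Depth limited CYP1A2, UGT1A6 and CYP2S1, with few counts per library.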

Other observations

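Genes of oestrogen and catechol handling, which takes up products of the CYP1 enzymes, were split. Of 12 tested, 5 rose and 5 fell in small spheroids (median log2 fold change 0.08), 4 rose and 7 fell in large spheroids (-0.34) and 4 rose and 4 fell in capsules (0.17). After the GC and length correction 7 rose and 3 fell, 5 rose and 6 fell, and 6 rose and 2 fell. The shares of all genes called before it were 72.3%, 57.1% and 66%. GSTP1, a glutathione transferase, fell from 15.7 ± 8.13 CPM in monolayer to 1.05 ± 0.362 CPM in capsules (SD, n = 3, edgeR adjusted p = 2.14e-07). Its monolayer libraries were uneven, at 17.4, 22.8 and 6.84 CPM, and the melanocyte marker MLANA held 10.5, 25.4 and 7.67 CPM in them. Whether the GSTP1 reads came with those of the melanocyte markers was not tested. The sulfotransferase SULT2B1 rose 4.32-fold, 2.68-fold and 5.08-fold in the 3 formats. After the correction GSTP1 stood at -4.57 in capsules on the log2 scale, and SULT2B1 at 1.39 in small spheroids and 1.74 in capsules.

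Of 15 genes of the PARP family, to which TIPARP belongs, and its reversing enzymes, 4 rose and 8 fell in small spheroids (median -0.39), 6 rose and 7 fell in large spheroids (-0.10) and 2 rose and 9 fell in capsules (-0.39). After the correction these were 6 and 7, 8 and 5, and 4 and 8. Of all genes, 72.3%, 57.1% and 66% were called before it. PARP14 fell 8.14-fold in small spheroids and 9.90-fold in capsules, from 12.3 ± 0.37 CPM in monolayer, and PARP9, its interferon-inducible partner, fell 4.06-fold and 3.61-fold. After the correction the log2 values in small spheroids were -2.25 for PARP14 and -1.37 for PARP9. MACROD1, a hydrolase that removes ADP-ribose, rose 4.23-fold, 2.35-fold and 3.09-fold in small spheroids, large spheroids and capsules, and by log2 0.67, 0.88 and 0.48 after the correction.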
